A study of Mus musculus with 87 samples.

Results

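The replication-dependent histone genes are the clustered genes that supply new histones to a cell while it copies its DNA. Members were taken by symbol (Hist1h to Hist4h names and their newer H1f, H2ac, H2bc, H3c and H4c forms, without names ending in -ps), which selected 69 of 55487 annotated genes. They comprise 6 linker histone H1, 20 H2A, 18 H2B, 12 H3 and 13 H4 genes. In GRCm38.p6, 56 of them lie on chromosome 13, 10 on chromosome 3, 2 on chromosome 11 and 1 on chromosome 6. All but *Hist1h2aj* and *Hist1h2al*, which are annotated as pseudogenes, are protein-coding. Reads were found for 64 members, and 60 to 63 per experiment passed the filter on low counts and were tested.

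H2A, H2B, H3 and H4 form the nucleosome core and H1 binds the linker DNA between nucleosomes. Most of the genes have no introns, and they are transcribed at the histone locus body under the co-activator NPAT. Their mRNAs typically end in a conserved stem-loop, bound by SLBP, in place of a poly(A) tail. In the annotation, 5 members, all H2B genes, also have a spliced transcript. Early cleavage embryos start from maternal histone stores and then rely on their own transcription. *Hist1h1t*, *Hist1h2aa* and *Hist1h2ba* are the germ line members, which encode histones known best from spermatocytes and oocytes.

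The members were followed in 41 RNA-seq libraries of 5 experiments, which asked what the homeobox factor OBOX4 does with and without DUX, an activator of the 2-cell (2C) programme. In the first experiment, mouse embryonic stem cells (mESCs, 129/Ola) that carry a TRE-3xFLAG-Obox4 transgene received doxycycline for 0, 12 or 48 h (n = 3 each), and since all come from one line, no line without the transgene enters. In the second, B6D2F1 zygotes of WT genotype were injected in the male pronucleus with antisense oligonucleotides (ASOs): scramble (40 µM), *Dux* (20 µM), *Obox4* (20 µM), both (40 µM, double KD), or both with 100 ng per µL of codon-optimised *Obox4* mRNA (rescue). Each of these libraries (n = 2 per group) pooled 30 middle 2C-embryos, collected 20 h after injection. The third compared scramble and double KD morulae of the same strain (n = 2 each). The fourth held single blastomeres of 2C-embryos (B6D2F1), all *Dux* KO, in which *Obox4* was WT, Het or KO (n = 2 each). The fifth held WT, *Obox4* KO, *Dux* KO and *Obox4*/*Dux* double KO mESCs (129/Ola, n = 3 each), all grown in pladienolide B (PlaB), a splicing inhibitor. Knockout lines were grown from single-cell clones and the double KO was made in *Obox4* KO cells, so the effect of a genotype and of a line cannot be told apart. CUT&RUN peak lists of the factors and of histone marks in mESCs were used as well.

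The libraries held 14283083 to 104864947 reads in genes. Levels below are CPM (read counts scaled to library size) on TMM-scaled libraries, and "called" means an adjusted p of at most 0.01 and a change of at least 2-fold in edgeR's quasi-likelihood test over all genes. The test sees only how far these libraries differ from each other within a group, which may be technical, and in bulk RNA fewer cells of a type and less RNA per cell cannot be told apart. Uniquely mapped *Obox4* reads, summed over 39 annotated copies, rose with doxycycline (0.385 to 0.611 CPM at 0 h, 7.08 to 8.51 CPM at 48 h). In 2C-embryos they were 68.4 and 76.0 CPM under scramble and 68.0 and 83.5 CPM in the libraries labelled *Obox4* KD, which the RNA level therefore does not separate. The paper also examined the knockdown at the protein level, by staining OBOX4 and DUX in ASO-injected 2C-embryos and measuring intensity per nucleus. Those measurements are not part of the data used here. In blastomeres, where the counts include multi-mapping reads, the levels overlapped between genotypes (20.7 and 31.0 CPM in *Obox4* WT, 32.2 and 14.4 in Het, 19.4 and 28.0 in KO). In the morulae labelled double KD, *Obox4* was higher than under scramble (3.74 and 7.93 CPM against 0.321 and 0.351 CPM), which goes against the label. In PlaB mESCs *Obox4* had 15.6 to 17.0 CPM in WT, 4.68, 3.65 and 11.9 CPM in *Obox4* KO, 0.116 to 0.130 CPM in *Dux* KO and 0 to 0.192 CPM in double KO cells. Among the *Obox4* KO libraries, the one labelled replicate 3 was thus nearest to WT in uniquely mapped reads. With multi-mapping reads, however, *Obox4* had 124 to 129 CPM in WT and 4.56, 4.11 and 16.5 CPM in *Obox4* KO. By that count replicate 3 was far below WT too. *Duxf3*, the annotated *Dux* gene, was at 0 in *Dux* KO and double KO mESCs and in all blastomeres. Markers of the 2C stage (*Zscan4c*, *Zscan4d*, *Zscan4f*) were present in 2C-embryos and mESC markers in the cell lines. In 3 libraries, however, such markers stood apart from the rest of their group: the morula library labelled double KD replicate 2, *Obox4* KO replicate 3 in PlaB and double KO replicate 3 in PlaB.

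The members share sequence features that the choice by name did not use. The histone stem-loop was searched within 200 bases after the stop codon, on the gene's strand, as the first form printed here with any base at the last loop position and up to 2 mismatches. It was found in 60 of 67 members with a coding sequence (89.6%) and in 6 of 22447 other coding genes (0.0267%). It began 22 to 59 bases after the stop (median 32). The 4 most frequent forms are shown because they separate H4 from the other classes, with the paired stem in capitals and the loop in lower case.
stem-loop of 38 members: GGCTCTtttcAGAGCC
stem-loop of 9 members: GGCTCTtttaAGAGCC
stem-loop of 8 H4 members: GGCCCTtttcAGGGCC
stem-loop of 2 H4 members: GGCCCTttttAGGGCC

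All 10 members with the stem GGCCCT were H4 genes. *Hist1h1t* and *Hist1h2ba* carry the second form, 30 and 28 bases after their stops, and *Hist1h2aa* carries the first. No match was found for *Hist1h2bp*, *Hist1h2bq*, *Hist1h2br*, *Hist2h2be*, *Hist1h4a*, *Hist1h4b* and *Hist1h4j*.

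Promoters, taken as the RefSeq windows of 300 bases around the start (GRCm38.p6, 62 members matched), were rich in 3 short motifs searched on both strands. CCAAT was present in 53 of the 62 (85.5%) and in 37.9% of all 27025 promoters. Only the H4 promoters mostly lacked it, with 3 of 12. The octamer ATTTGCAT was present in 13 of the 62 (7 H2A and 6 H2B) and in 1.75% of all promoters. TATAAA was present in 35 (56.5%, against 14.2%). H2A and H2B genes lie head to head in 13 pairs whose starts are 175 to 305 bases apart. The shared promoter of *Hist1h2ac* and *Hist1h2bc* (chr13:23683949-23684198, GRCm38.p6, plus strand, 250 bases) is shown because this H2A and H2B gene behaved differently in 2C-embryos. The capitals mark, in this order, TATAAA and CCAAT on the minus strand, CCAAT, ATTTGCAT and CCAAT on the plus strand.
Hist1h2ac-Hist1h2bc promoter: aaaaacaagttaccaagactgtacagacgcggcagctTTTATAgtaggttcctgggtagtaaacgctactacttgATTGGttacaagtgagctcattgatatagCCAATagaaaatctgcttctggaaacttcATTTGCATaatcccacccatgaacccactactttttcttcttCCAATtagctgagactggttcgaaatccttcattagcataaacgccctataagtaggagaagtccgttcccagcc

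*Hist1h2ac* starts left of this region on the minus strand and *Hist1h2bc* right of it on the plus strand, so that both genes are read outward from the same motifs.

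In induced mESCs, 3xFLAG-OBOX4 had a CUT&RUN peak at the start of every member. With a peak within 500 bases in at least 2 of the 3 lists required, 69 of 69 members held one, against 5028 of 21884 coding genes (23%). The share of coding genes was 35.2% (4951 of 14048) among those with H3K4me3, the mark of active promoters, and 53.3% (3842 of 7204) among those with H3K4me3 and H3K27ac, where members had 65 of 65. Peaks in all 3 lists were found at 67 members, and 65 kept a peak at a −log10 q of at least 10. The single list of 3xFLAG-DUX, with 1802 peaks, held none at the 69 members, against 152 coding genes (0.695%).

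The OBOX4 peaks at members were among the strongest of the lists. The median fold enrichment given by the authors was 40.4, 39.8 and 34.0 at members in the 3 lists and 4.88, 5.30 and 4.75 at other coding genes with a peak. The member medians lay above 97.9%, 97.4% and 97.4% of all peaks of the respective list. Neighbouring genes share peaks, so the members rest on 32, 35 and 39 distinct peaks.

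Within the family the enrichment spanned more than an order of magnitude. *Hist1h2ah* and *Hist1h2bk*, a divergent pair, had 129.6, 128.5 and 107.8, and *Hist1h4i*, *Hist1h2ag* and *Hist1h2bj* nearby had the same values. The germ line H1 gene *Hist1h1t* had 3.60 and 3.97 in lists 1 and 3 and no peak in list 2. The germ line pair *Hist1h2aa* and *Hist1h2ba* shared a peak of 6.35, 4.48 and 5.02. The other low members were *Hist1h2al* and the chromosome 11 genes *Hist3h2a* and *Hist3h2ba*. MACS3 called these peaks per replicate, with no control library named in the sources used here, and the IgG library and the FLAG library of WT mESCs were not analysed here, so the level without OBOX4 at these loci is unknown.

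**Figure D1:**
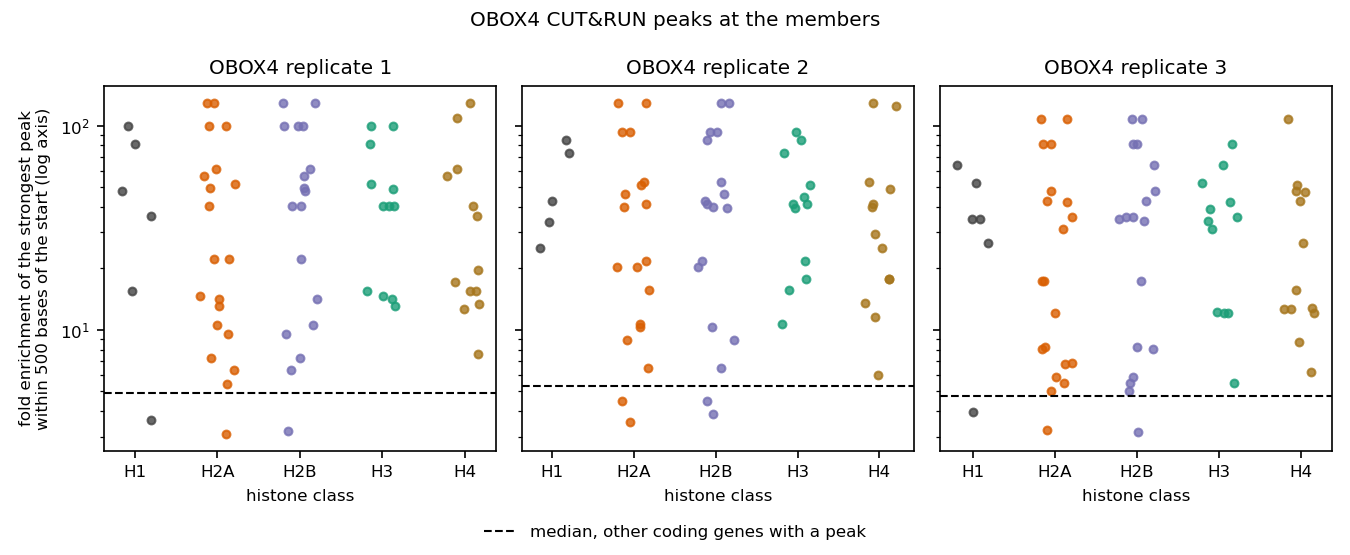
Fold enrichment of the strongest OBOX4 peak within 500 bases of each member's start (log axis) by histone class, 1 panel per CUT&RUN replicate, 1 point per member with a peak. The dashed line is the median of other coding genes with a peak (4.88, 5.30 and 4.75), and nearly all members lie above it in each class.

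Active marks covered nearly the whole family. H3K4me3 was held by 69 members in WT mESCs without PlaB (64.2% of coding genes), and by 65 in WT cells with PlaB (60.9%) and in *Obox4* KO cells without and with PlaB (62.3% and 61.3%). The 4 members that lost the call were *Hist1h1d*, *Hist1h1t*, *Hist1h2ba* and *Hist1h2aa*. H3K27ac was held by 65 and 65 members in WT cells without and with PlaB (33.2% and 31.8% of coding genes) and by 64 and 62 in *Obox4* KO cells (32.7% and 30.3%). H3K27me3, a repressive mark, was held by 2 and 3 members in WT cells (19.4% and 19.6%) and by 5 and 5 in *Obox4* KO cells (25.5% and 25.1%). These are counts of peak calls, and differences between the lists were not tested.

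Summed over all members, the family took 7776 to 12158 CPM in the induction series, 4419 to 10971 in PlaB mESCs, 3041 to 4363 in 2C-embryos, 2140.1 to 6709.6 in morulae and 2780.2 to 5848 in blastomeres. The 5 tables were scaled separately, so these ranges are side by side only. Per the paper's methods, embryo libraries were made with the SMART-Seq Stranded kit and cell culture libraries with the NEBNext Ultra II Directional kit. Between mESCs and embryos, cell type and library kit therefore cannot be told apart. H1 made 20.9 to 25.0% of the sum in the induction series and 38.4 to 46.5% in 2C-embryos. H4 made 30.1 to 33.5% and 15.4 to 19.0%. H2A was the smallest class in every library except double KO replicate 3 in PlaB, with 6.73 to 8.35% in the induction series and 2.09 to 5.80% in 2C-embryos.

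**Figure D2:**
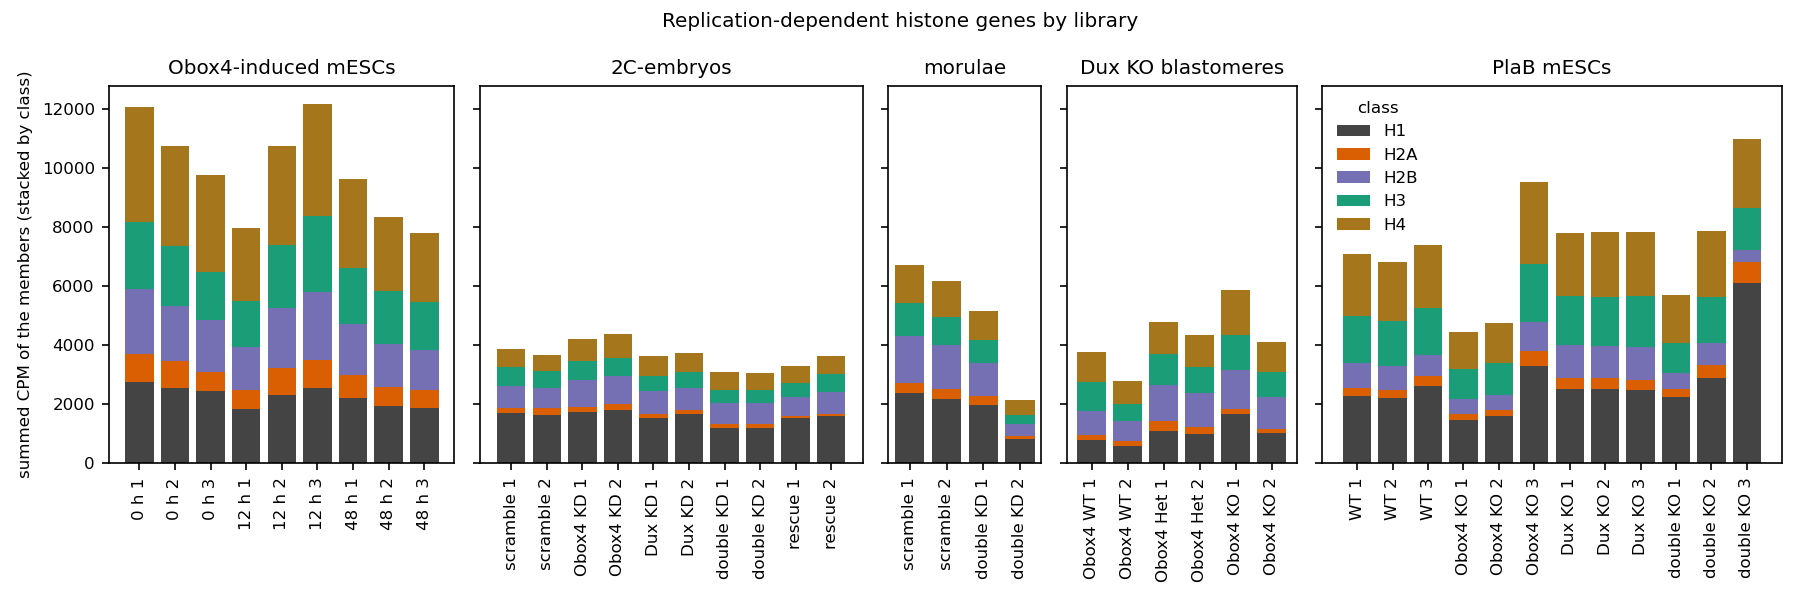
Summed CPM of the 5 histone classes (vertical axis, stacked) in each of the 41 libraries (horizontal axis), 1 panel per experiment. Totals differ most between the libraries of a group in morulae labelled double KD (5154 and 2140.1 CPM), in *Obox4* KO mESCs in PlaB (4419, 4746 and 9526), in double KO mESCs in PlaB (5699, 7869 and 10971) and at 12 h of induction (7946, 10726 and 12158).

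Per kilobase, so that genes can be compared, *Hist1h1a*, which encodes the H1.1 linker histone, was the highest named member in 2C-embryos (1926 CPM per kb, mean of all libraries), in blastomeres (1256), in PlaB mESCs (1062) and in morulae (578). In 2C-embryos it was followed by *Hist1h2bk* at 608, *Hist1h2bj* at 346 and *Hist1h3f* at 304 CPM per kb. In the induction series *Hist1h1a* had 1013, *Hist1h4h* 954, *Hist1h2bb* 753 and *Hist1h3e* 565 CPM per kb, and *Hist1h4k*, an H4 gene named after its value was seen, had 1205. *Hist1h1c*, the H1.2 gene, had 387 CPM per kb there, 379.8 in morulae and only 19.3 in 2C-embryos. In CPM, *Hist1h1c* was 37.7 and 36.7 in scramble 2C-embryos and 806 and 674 in scramble morulae. The germ line H1 gene *Hist1h1t* had 0.65 to 11.0 CPM per kb across the 5 experiments.

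The members with the highest mean CPM of each class, a ranking not corrected for length, differed between mESCs and embryos, as did the library kit. In the induction series the H2B leader *Hist1h2bb*, a core histone gene of the chromosome 13 cluster, had 485, 417 and 391 CPM at 0 h and 356, 305 and 279 CPM at 48 h. The H3 leader *Hist1h3e* had 540.2, 478 and 387 CPM at 0 h and 478, 467 and 409 CPM at 48 h, and the H2A leader *Hist1h2al* 206, 189 and 162 CPM against 163, 126 and 123 CPM. The groups overlapped for *Hist1h3e* and *Hist1h2al* and were apart for *Hist1h2bb*. In scramble 2C-embryos the leaders were *Hist1h2bk* with 292 and 283 CPM for H2B, *Hist1h3f* with 442 and 398 for H3, *Hist4h4* with 282 and 245 for H4 and *Hist1h2aa* with 40.7 and 38.0 for H2A. Blastomeres shared *Hist1h2bk*, *Hist1h3f* (475 and 314 CPM in *Obox4* WT) and *Hist4h4* (644 and 361 CPM) as leaders. In scramble morulae they were *Hist1h2bc* (252 and 228 CPM), *Hist1h3e* (239 and 207), *Hist1h4d* (523 and 471) and *Hist1h2ab* (59.3 and 55.4).

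In WT mESCs in PlaB, *Hist1h2al* had 115, 106 and 139 CPM and *Hist1h2bb* 114, 112 and 105 CPM. *Hist1h3e* had 434, 402 and 459 CPM, and *Hist1h4d* 438, 412 and 473 CPM. In double KO cells these H2A and H2B genes parted in replicate 3, with *Hist1h2al* at 148, 196 and 473 CPM and *Hist1h2bb* at 83.1, 114 and 49.0 CPM. Double KO replicate 3 was thus the highest library for *Hist1h2al* and the lowest for *Hist1h2bb*.

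How the reads were assigned limits H2A more than the other classes. Of the 20 H2A members, 19, all but *Hist2h2ab*, contain an annotated miRNA-type gene of 129 to 144 bases on the opposite strand, and none of the 49 members of other classes does. This check was made after the values were seen. Reads that touch both genes can be dropped or kept depending on the strand setting of the count, which is not given in the sources used here except for blastomeres (unstranded). The longest stretch of such an H2A transcript free of the other gene was 203 to 357 bases (median 252). The 5 members with no read in any library (*Hist2h2aa1*, *Hist2h2aa2*, *Hist2h2bb*, *Hist2h3b*, *Hist2h3c1*) all overlap another gene. Near-identical copies such as *Hist1h2bq* and *Hist1h2br* share reads. Counting multi-mapping reads raised the family's sum by a factor of 1.29 to 1.37 in the induction series, 1.17 to 1.22 in 2C-embryos and 1.32 to 1.39 in PlaB mESCs.

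After 48 h of *Obox4* induction most members were slightly lower, and few passed the test. Summed over the family, the libraries had 12068, 10750.0 and 9750.3 CPM at 0 h and 9611, 8317 and 7776 CPM at 48 h, with 7946, 10726 and 12158 at 12 h. Every 48 h sum was below every 0 h sum, while the 12 h libraries spanned both. At 12 h no member was called by edgeR (0 of 60 tested, 0.757% of all genes; 12 members at an unadjusted p under 0.05; 0 by DESeq2). The median log2 fold change of members was −0.04. At 48 h, 1 member was called, higher (3.95% of all genes, 3.37% higher), and 52 of 60 had a negative log2 fold change, with a median of −0.36 for members and −0.01 for all genes tested.

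At the adjusted p of 0.05 alone, 11 members passed at 48 h (12.2% of all genes), of which 10 were lower (3.8%). *Hist1h2bg*, an H2B gene, had 205, 201 and 201 CPM at 0 h and 136, 133 and 122 CPM at 48 h, and the groups did not overlap (log2 fold change −0.63, SE 0.10, adjusted p = 0.00233). *Hist1h4c*, an H4 gene, had 178, 159 and 183 CPM against 124, 109 and 104 CPM, again without overlap (log2 fold change −0.62, adjusted p = 0.0162). The others were *Hist1h2ae*, *Hist1h2bf*, *Hist1h2aa*, *Hist2h4*, *Hist1h2bm*, *Hist1h4d*, *Hist1h1d* and *Hist1h1e*, with log2 fold changes of −0.77 to −0.32. All 48 h libraries lay below all 0 h libraries for 26 members (14.3% of all genes) and above them for 2 (17.6% of all genes).

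Among the most abundant members, *Hist1h1a* and *Hist1h4h* were slightly lower at 48 h without passing the test. *Hist1h4d* and *Hist1h1d* passed 0.05 as given above, and the H3 genes *Hist1h3e* and *Hist1h3f* hardly changed (log2 fold change −0.05 each). *Hist1h1a* had 883, 760.2 and 699.7 CPM at 0 h and 746, 621 and 579 CPM at 48 h (log2 fold change −0.27, adjusted p = 0.407), and its groups overlapped. *Hist1h4h* had 565, 487 and 444 CPM against 448, 364 and 351 CPM (log2 fold change −0.36, adjusted p = 0.265), with 1 overlapping library. By class, the median log2 fold change was −0.43 for H4, with 13 of 13 negative, −0.41 for H2B, −0.36 for H1, −0.26 for H2A and −0.18 for H3. Of 29 S phase genes, 26 were negative (median −0.14) and 3 passed at 0.05, all lower. The summed CPM of 235 other coding genes shorter than 400 bases, a set chosen after the values were seen, was 428 to 589 at 0 h and 391 to 515 at 48 h, and its part in the shift was not tested.

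The member called at 48 h was *Hist1h1t*, the testis-specific H1 gene, which rose. It had 1.26, 1.02 and 2.12 CPM at 0 h, 2.54, 2.56 and 2.64 CPM at 12 h, and 3.79, 3.10 and 4.06 CPM at 48 h. The 0 h libraries were below the 12 h and the 48 h libraries, all at a low level. The log2 fold change at 48 h was 1.31 (SE 0.25, 2.47-fold, adjusted p = 0.00708). The call was lost when any library other than 0 h replicate 3 was left out, with log2 fold changes of 1.07 to 1.68 over the 6 choices, and with a replicate block (adjusted p = 0.0149). Genes of the 2C stage rose in the same libraries (6 of 6 markers called, median log2 fold change 2.30), as did 2 of 4 fibroblast markers, and their part in the *Hist1h1t* value was not tested.

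In 2C-embryos the clearest change was a drop of H2A transcripts in the rescue, where codon-optimised *Obox4* mRNA was injected with both ASOs. Against the double KD, 8 of 60 members were called, all H2A and all lower (4.37% of all genes, 3.27% lower). *Hist1h2an*, an H2A gene (chr13:21786826-21787218, minus strand), had 19.2 and 22.0 CPM in the double KD and 5.45 and 7.80 CPM in the rescue. The scramble libraries had 28.5 and 33.7 CPM, so the rescue lay below both groups. It fell by 1.64 on the log2 scale (SE 0.16, adjusted p = 1.68e-06, edgeR's quasi-likelihood test).

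The other called H2A genes fell as well. *Hist1h2af* had 10.3 and 10.6 CPM in the double KD and 2.27 and 3.44 CPM in the rescue (log2 fold change −1.88, SE 0.20, adjusted p = 2.92e-06). *Hist1h2ai* had 13.8 and 14.0 CPM against 3.71 and 6.13 CPM (−1.51, SE 0.18, adjusted p = 1.06e-05). *Hist1h2ac* had 21.7 and 24.4 CPM against 10.9 and 9.61 CPM (−1.16, SE 0.13, adjusted p = 6.37e-06). In each of them the rescue libraries were below both double KD libraries. *Hist1h2ag*, *Hist1h2ab*, *Hist1h2ak* and *Hist1h2ad* had log2 fold changes of −1.37 to −1.20, at levels under 10 CPM. With 1 library left out, 6 to 10 members were called. In the same comparison 4 of 6 markers of the 2C stage were called higher (median log2 fold change 1.28) and 4 of 5 oocyte markers were higher at 0.05 (median 0.58). The groups differed in *Dux* RNA as well, with *Duxf3* at 3.86 and 2.92 CPM in the double KD, 8.16 and 5.78 CPM in the rescue and 6.49 and 7.68 CPM under scramble. Reads of the annotated *Obox4* copies were at 44.1 and 41.7 CPM in the double KD and 31.4 and 38.5 CPM in the rescue, whose injected mRNA is codon-optimised. The rescue libraries were also the deepest of the 2C-embryos, with 69461986 and 53821827 reads in genes, followed by double KD replicate 1 with 44614416. The part of these differences in the H2A values was not tested.

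Of the 16 H2A members tested, 15 were lower in the rescue and 11 passed the adjusted p of 0.05, with a median log2 fold change of −1.18. The medians of the other classes were −0.04 for H2B, 0.00 for H3, −0.04 for H4 and 0.13 for H1, and the median of all genes was −0.04. At the adjusted p of 0.05, 21 members passed in all (28.2% of all genes). Among them *Hist1h1a* was higher in the rescue (1083 and 1069 CPM against 1422 and 1454 CPM, log2 fold change 0.42, adjusted p = 3.1e-05), as was *Hist1h3f*, an H3 gene (297 and 284 CPM against 355 and 446 CPM, 0.46, adjusted p = 0.000682). For both, the rescue was above the double KD and nearer to scramble.

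H2A and H2B genes that share a promoter were split by this comparison. In 12 of 12 divergent pairs the H2A gene was lower than its H2B partner, with median log2 fold changes of −1.18 and −0.07. For the pair printed above, *Hist1h2ac* fell as given, whereas *Hist1h2bc* had 67.9 and 70.0 CPM in the double KD and 62.2 and 68.9 CPM in the rescue. Their groups thus separated for the H2A gene and overlapped for the H2B gene.

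**Figure D3:**
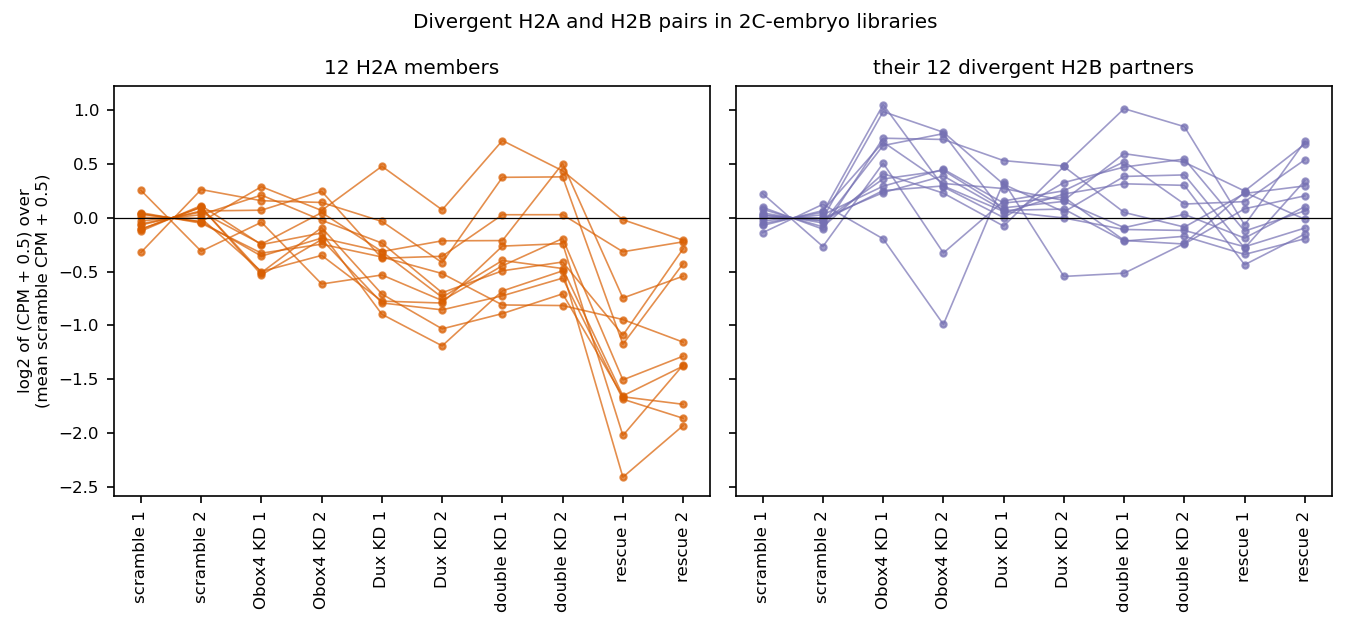
log2 of CPM plus 0.5 over the scramble mean (vertical axis) in the 10 libraries of 2C-embryos (horizontal axis), for 12 H2A members (left) and their divergent H2B partners (right). Lines join the values of 1 gene, and the rescue libraries are lowest for most H2A genes but not for H2B.

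The rescue was also compared with scramble embryos, a comparison added after the values were seen that shares the rescue libraries with the one above. It called 8 members, again all H2A and all lower (2.67% of all genes, 1.24% lower). *Hist1h2an* had a log2 fold change of −2.24 (SE 0.16, adjusted p = 1.56e-07) and *Hist1h2ac* of −1.82 (SE 0.13, adjusted p = 1.56e-07). The remaining 6 were *Hist1h2ah*, *Hist1h2ai*, *Hist1h2aa*, *Hist1h2ag*, *Hist1h2af* and *Hist1h2ad*, between −1.77 and −1.06. The looser threshold of 0.05 passed 13 members (10.8% of all genes).

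Other short coding genes moved in part with the H2A sum, but fell less than H2A from the double KD to the rescue. The 235 coding genes under 400 bases outside the family summed to 135 and 120.0 CPM under scramble, 105 and 108 in the libraries labelled *Obox4* KD, 85.4 and 89.2 in *Dux* KD, 84.4 and 84.3 in the double KD, and 68.7 and 79.8 in the rescue. H2A summed to 201 and 212, 167 and 183, 136 and 118, 141 and 151, and 68.7 and 77.8 CPM in the same order. H2B summed to 742 and 704, 941 and 956, 778 and 769, 704 and 712, and 631 and 754 CPM. Both the short genes and H2A were highest under scramble and lowest in the rescue, while H2B was highest in the libraries labelled *Obox4* KD. The part of transcript length, of the overlapping opposite-strand genes and of library preparation in the H2A values was not tested.

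**Figure D4:**
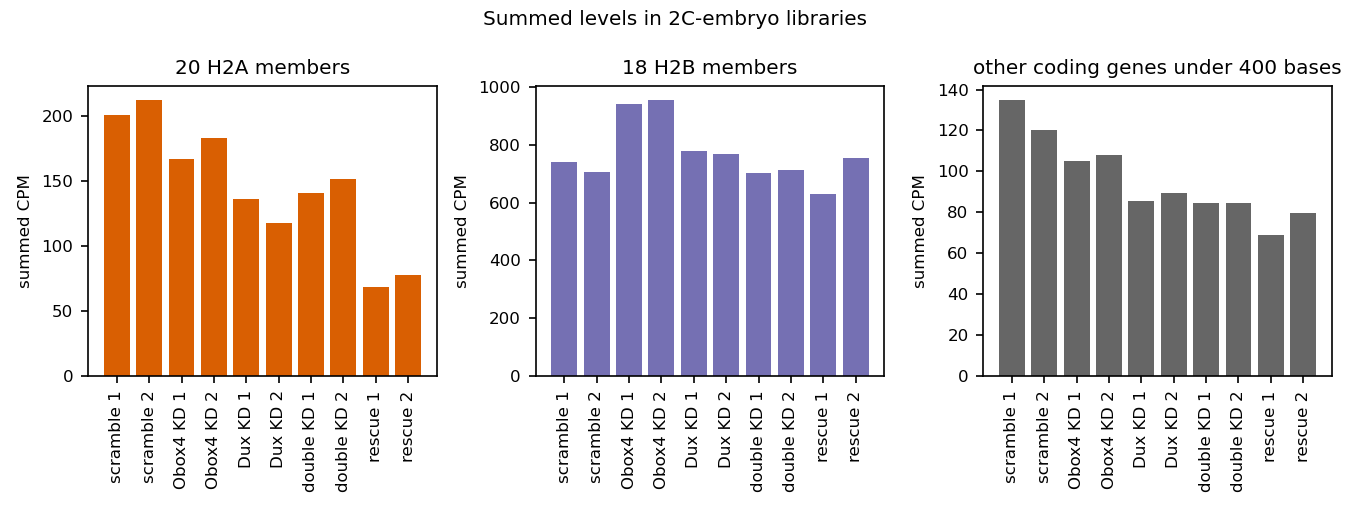
Summed CPM (vertical axis) of H2A members, H2B members and 235 other coding genes shorter than 400 bases in each 2C-embryo library (horizontal axis). H2A falls from 201 and 212 CPM under scramble to 68.7 and 77.8 CPM in the rescue, and the short genes from 135 and 120.0 to 68.7 and 79.8 CPM.

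*Dux* KD embryos had a smaller difference of the same kind from scramble. The double KD and the libraries labelled *Obox4* KD were compared with the same scramble libraries, and the double KD also with these *Dux* KD libraries. Total ASO concentration was lower in each single KD than under scramble and in the double KD. Its part in the comparisons of a single KD with either group was not tested. *Hist1h2an* was the 1 called member (4.3% of all genes), with 28.5 and 33.7 CPM under scramble and 16.5 and 13.4 CPM in *Dux* KD. It fell by 1.05 on the log2 scale (SE 0.16, adjusted p = 0.000189). The count was 0 without *Dux* KD replicate 2 or scramble replicate 2, and 2 without *Dux* KD replicate 1. A total of 11 members passed 0.05 alone (19.6% of all genes), among them 7 of 16 H2A members, all lower (9.45% of all genes). The median log2 fold change was −0.64 for H2A and 0.18 for H2B. In 11 of 12 divergent pairs the H2A gene was the lower one.

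In the double KD, no member was called by edgeR (0 of 60, 11.6% of all genes; 23 at an unadjusted p under 0.05; 0 by DESeq2), while 13 passed the adjusted p of 0.05 (37% of all genes). Leaving out double KD replicate 2 or scramble replicate 1 gave 1 call. *Hist1h1a* had 1558 and 1522 CPM under scramble and 1083 and 1069 CPM in the double KD (log2 fold change −0.52, SE 0.06, adjusted p = 1.44e-06). *Hist1h1c* had 37.7 and 36.7 CPM against 21.7 and 20.4 CPM (−0.82, adjusted p = 5.55e-05), and *Hist1h3f* 442 and 398 CPM against 297 and 284 CPM (−0.53, adjusted p = 0.00012). In all 3 the groups were apart. *Hist1h2bn* was the reverse, with 12.5 and 10.8 CPM against 24.1 and 21.4 CPM (0.96, adjusted p = 0.000625). The family's median was −0.11, and 6 of 6 markers of the 2C stage were called lower (median −2.20).

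Against *Dux* KD embryos, the double KD had 1 called member, *Hist1h2af* (0.754% of all genes), with 4.71 and 5.27 CPM in *Dux* KD and 10.3 and 10.6 CPM in the double KD. It rose by 1.07 (SE 0.19, adjusted p = 0.00181), a call that was lost when any of the 4 libraries was left out (0.97 to 1.13) and with multi-mapping reads. With the threshold of 0.05 alone, 9 members passed (11.3% of all genes). *Hist1h1a* had 1403 and 1525 CPM in *Dux* KD (log2 fold change −0.44, adjusted p = 9.85e-05), and *Hist1h1d*, the H1.3 gene, 47.4 and 55.1 CPM against 35.9 and 32.6 CPM (−0.58, adjusted p = 0.0016). The double KD was below *Dux* KD in both.

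In the libraries labelled *Obox4* KD, no member was called by edgeR (0 of 60, 0.412% of all genes; 26 at an unadjusted p under 0.05; 0 by DESeq2). A total of 13 passed the adjusted p of 0.05 (5.85% of all genes), all higher than scramble (3.01%). Of 16 H2B members 9 passed, with a class median of 0.45. *Hist1h2bm* had 31.0 and 30.9 CPM under scramble and 61.8 and 54.1 CPM in the libraries labelled *Obox4* KD (log2 fold change 0.90, SE 0.15, adjusted p = 0.00239). *Hist4h4*, an H4 gene, had 282 and 245 CPM against 342 and 367 CPM (0.43, adjusted p = 0.0025). The groups were apart in both, and the H2A median was −0.21.

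The effect of the *Obox4* ASO in embryos with and without the *Dux* ASO was compared by an interaction term. Total ASO concentration rose from *Dux* KD to the double KD but fell from scramble to the libraries labelled *Obox4* KD. The term therefore cannot tell the *Obox4* ASO from total ASO concentration, whose part was not tested. No member was called (0 of 60 by edgeR, 0.256% of all genes; 27 at an unadjusted p under 0.05; DESeq2 was not run for this term). Leaving out *Dux* KD replicate 1 or a rescue library, which enters only through the shared spread, gave 1 call. With 0.05 alone, 14 members passed (2.57% of all genes), 12 with a lower (1.47%) and 2 with a higher effect (1.1%) in the presence of the *Dux* ASO. *Hist1h1a* (−0.52), *Hist1h4h* (−0.91) and *Hist1h1d* (−0.89) were among the 12, and the 2 were *Hist1h2af* (1.38) and *Hist1h2ai* (0.99). The median was −0.33 for all members and −0.02 for all genes.

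In morulae the members were lower in the libraries labelled double KD in nearly every case, but the replicates differed widely. The RNA level did not show the knockdown, since *Obox4* was higher there as given above and *Duxf3* had 0.285 and 6.00 CPM against 0.150 and 0.0915 CPM under scramble. edgeR called no member and no gene (0 of 63 and 0% of all genes; 10 members and 3941 genes at an unadjusted p under 0.05; by DESeq2, 0 members and 789 genes). *Hist1h1c*, one of the leading members here, had 806 and 674 CPM under scramble and 693 and 197 CPM in the libraries labelled double KD. *Hist1h4d* had 523 and 471 CPM against 381 and 171 CPM, and *Hist1h3e* 239 and 207 CPM against 143 and 54.2 CPM. Replicate 2 of those labelled double KD was the lowest library each time. *Hist1h2ai*, in contrast, overlapped, with 42.2 and 39.0 CPM against 47.2 and 18.8 CPM.

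The median log2 fold change was −0.83 for members, with 60 of 63 negative, and 0.02 for all genes. Both libraries labelled double KD lay below both scramble libraries for 43 members (28.5% of all genes) and above them for 0 (28.9% of all genes). Without the library labelled double KD replicate 1, 51 members were called lower (22% of all genes) with a median of −1.93. Without replicate 2, 0 were called (3.82%), with a median of −0.33 and 50 negative. In these fits the lone library is assumed to vary like the other group. Replicate 2 also held transcripts of the 2C stage, with *Zscan4c* at 46.0 CPM and *Zfp352* at 104.7 CPM where the other 3 libraries had at most 0.061 and 3.05 CPM, and less *Pou5f1* (217 CPM against 478 to 586) and *Cdx2* (13.9 CPM against 62.2 to 96.8). Stage and histone level therefore cannot be told apart in that library.

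Single blastomeres, all without *Dux*, gave no call, and library sums varied within genotypes. The members summed to 3774 and 2780.2 CPM in *Obox4* WT, 4776 and 4349 in *Obox4* Het and 5848 and 4091 in *Obox4* KO cells. Both Het and both KO sums lay above the WT sums. *Hist1h1a* had 756 and 537 CPM in WT, 917 and 827 in Het and 1563 and 982 in KO blastomeres, which did not overlap (Het, log2 fold change 0.43, adjusted p = 1; KO, 0.98, adjusted p = 0.46). *Hist1h2bk* had 291 and 257, 312 and 416, and 518 and 439 CPM. *Hist1h1c* ran the other way in KO cells, with 22.1 and 14.7, 50.9 and 80.3, and 6.60 and 0.612 CPM.

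edgeR called 0 of 62 members in Het (0% of all genes; 4 members at an unadjusted p under 0.05; 0 by DESeq2) and 0 of 62 in KO cells (0%; 10 members; 0 by DESeq2), where the adjusted p of 0.05 passed 0.0261% of all genes and no member. Leaving out either KO library left a single KO cell, so calls in those fits are not read as results about the members. The median log2 fold change was 0.78 in Het, with 56 of 62 positive, and 0.33 in KO, with 33 positive and a range over left-out libraries of −0.19 to 0.35. The 2 comparisons share the WT libraries, and each cell is 1 library.

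In PlaB mESCs the called members of the double KO, compared with *Dux* KO cells, were H2B genes, all lower. *Hist1h2bh* had 85.9, 87.6 and 86.0 CPM in *Dux* KO and 28.2, 40.6 and 19.4 CPM in double KO cells (log2 fold change −1.54, SE 0.22, adjusted p = 0.000558). *Hist1h2bf* had 67.7, 65.7 and 66.8 CPM against 27.5, 31.5 and 11.5 CPM (−1.48, SE 0.27, adjusted p = 0.00234). *Hist1h2be* had 91.4, 82.6 and 90.3 CPM against 35.4, 49.3 and 18.1 CPM (−1.35, SE 0.29, adjusted p = 0.00608). The annotated *Hist1h2be* spans 35594 bases from its start to the stem-loop and overlaps *Hist1h1e* and *Gm11398*. The part of this overlap in its counts was not tested. All double KO libraries were below all *Dux* KO libraries for the 3 genes, which were the called members (3 of 62, 7.07% of all genes, 2% lower). DESeq2 called 11 members, and without a filter on low counts 12 were called. The share of all genes under these alternatives is not given, so the counts are not read as results about the members.

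At the adjusted p of 0.05, 16 members passed, all lower (24.9% of all genes, 10.2% lower), and 10 of them were among the 17 H2B members tested. All 17 H2B members were negative, with a median of −1.05, against −0.74 for H3, −0.25 for H2A, −0.17 for H4 and 0.11 for H1. In divergent pairs the H2B gene was mostly the lower one, with H2A lower in 1 of 11. *Hist1h3b*, an H3 gene, had 85.4, 85.7 and 89.5 CPM against 43.4, 56.3 and 33.2 CPM (−0.96, adjusted p = 0.0015). Among H1 genes, *Hist1h1a* did not follow, with 646, 663 and 639 CPM against 628, 846 and 2451 CPM (1.01, adjusted p = 0.094). Its last value comes from replicate 3, and without that library the H1 median was −0.17, with 4 of 6 negative. *Hist1h1t*, also an H1 gene, was lower (−1.25, adjusted p = 0.0105).

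Double KO replicate 3 had the fewest reads of all libraries and a different class balance, with H1 at 6089 CPM and H2B at 393 CPM, where the other PlaB libraries had 1464 to 3295 and 524 to 1119. Without it, 4 members were called (5.55% of all genes): *Hist1h2bf* (−1.20, SE 0.16, adjusted p = 0.000421), *Hist1h2bh* (−1.35), *Hist1h2be* (−1.07) and *Hist1h4n* (−1.30). All 17 H2B members were still negative, with a median of −0.77. The count was 12 without double KO replicate 2, 2 without replicate 1, and 1 without any one of the *Dux* KO libraries, when *Hist1h2bh* alone kept its call. These 3 counts stand without the share of all genes in their fits. Of 29 S phase genes 23 were negative (median −0.36, 10 lower and 2 higher at 0.05), all 18 G2 and mitosis genes were negative (median −0.42, 10 lower), and 5 of 6 morula markers were called higher. The part of these genes in the H2B values was not tested.

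**Figure D5:**
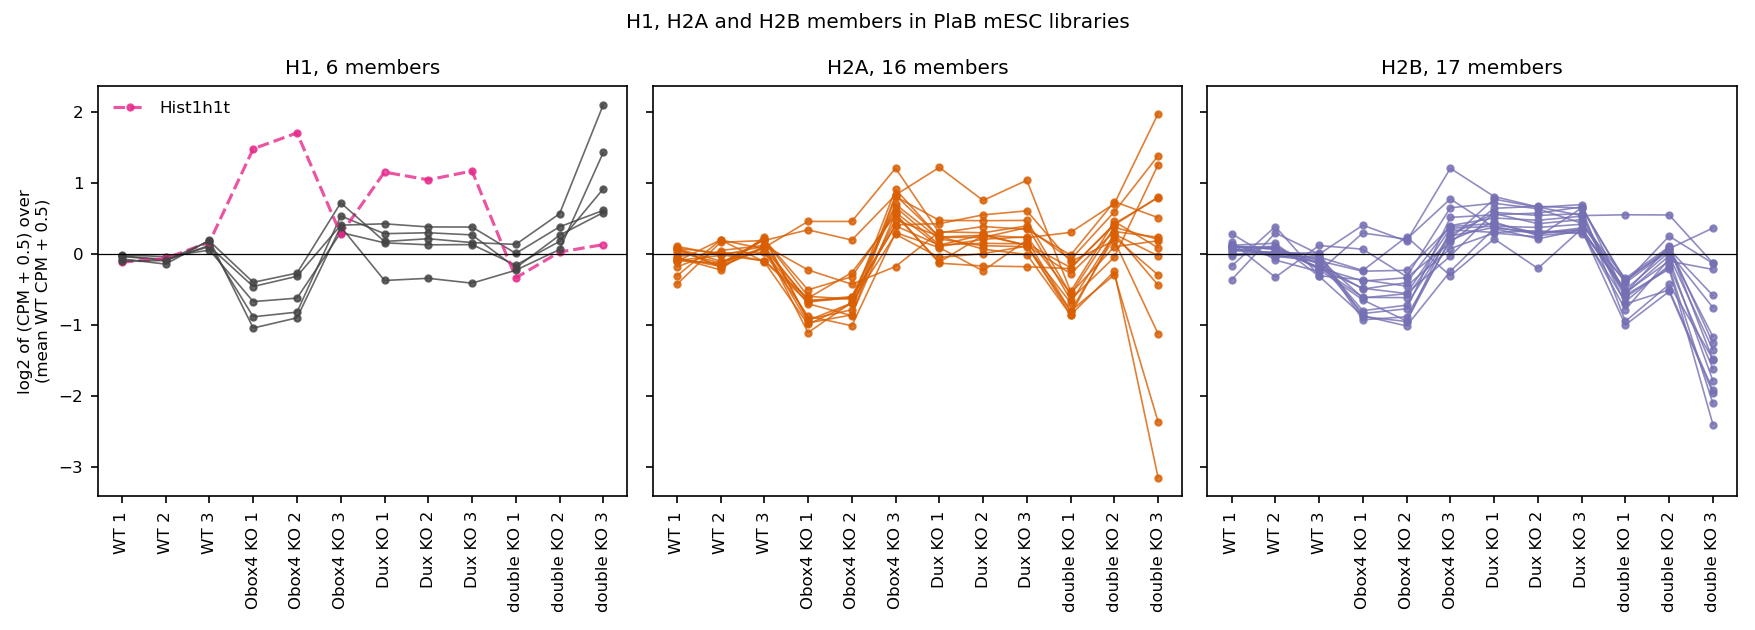
log2 of each H1, H2A and H2B member relative to the WT mean (vertical axis) in the 12 libraries of PlaB mESCs (horizontal axis), 1 line per member, with *Hist1h1t* dashed. H2B members are lowest in double KO replicate 3, and *Hist1h1t* is highest in *Obox4* KO replicates 1 and 2.

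Against WT cells, with which 3 comparisons share their controls, the family changed less. In *Dux* KO cells no member was called by edgeR (0 of 62, 6.32% of all genes; 6 at an unadjusted p under 0.05; 1 by DESeq2), and 3 passed the adjusted p of 0.05 (16.6% of all genes), all higher (7.4%): *Hist1h1t*, *Hist1h3b* and *Hist3h2a*. Members were mostly slightly higher, with 56 of 62 positive and a median of 0.25, and 17 of 17 H2B members were positive with a median of 0.49. *Hist1h3b* had 58.3, 58.8 and 58.7 CPM in WT cells and the *Dux* KO values above, all higher (log2 fold change 0.57, adjusted p = 0.0312). In double KO cells no member was called by edgeR (0 of 62, 18% of all genes; 11 at an unadjusted p under 0.05; 1 by DESeq2), and 6 passed the adjusted p of 0.05 (41.3% of all genes). *Hist1h2bh* had 59.4, 57.4 and 47.9 CPM in WT cells, all above the double KO (−0.89, adjusted p = 0.00663), and *Hist1h1a* was the 1 higher member (1.19, adjusted p = 0.0371). Without double KO replicate 2, 8 members were called, and 1 without replicate 1. The share of all genes in these fits is not given, so the counts are not read as results about the members.

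In *Obox4* KO cells the outcome depended on the library labelled replicate 3. Uniquely mapped *Obox4* reads were at 11.9 CPM there, against 4.68 and 3.65 CPM in the other 2 libraries and 15.6 to 17.0 CPM in WT. With multi-mapping reads *Obox4* was at 16.5 CPM in replicate 3 and at 124 to 129 CPM in WT. *Hist1h4h*, an H4 gene, had 255, 225 and 263 CPM in WT cells and 93.9, 113 and 319 CPM in *Obox4* KO cells. *Hist1h3g* had 129.8, 123 and 129 CPM against 51.2, 55.3 and 160.4 CPM. Replicates 1 and 2 were below all WT libraries and replicate 3 above them. With all libraries, 1 member was called (8.88% of all genes), which was *Hist1h1t*, 2 passed the adjusted p of 0.05 (25.8%), and the median was −0.17.

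Without *Obox4* KO replicate 3, 4 members were called (13.6% of all genes). *Hist1h4h* (log2 fold change −1.26, SE 0.13, adjusted p = 1.14e-05), *Hist1h3g* (−1.26, SE 0.14, adjusted p = 3.00e-05) and *Hist1h4i* (−1.07, SE 0.13, adjusted p = 4.39e-05) fell and *Hist1h1t* rose. In that fit 56 of 62 members were negative, with a median of −0.64 and class medians of −0.71 for H2A, −0.68 for H4, −0.59 for H2B, −0.52 for H1 and −0.50 for H3. Replicate 3 also differed in other genes, with *Krt18* at 817 CPM against 136 to 138 CPM in replicates 1 and 2, and 4 of 6 morula markers were called higher with all libraries (median 1.82).

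In PlaB mESCs *Hist1h1t* was higher in both single knockouts than in WT cells, but not in the double KO. It had 5.41, 5.63 and 6.69 CPM in WT, 17.4, 20.3 and 7.27 CPM in *Obox4* KO, 13.7, 12.7 and 13.9 CPM in *Dux* KO and 4.58, 6.03 and 6.52 CPM in double KO cells. Every single knockout library was above every WT library, and the double KO overlapped WT. The log2 fold change against WT was 1.34 in *Obox4* KO (SE 0.30, adjusted p = 0.00568), 1.18 in *Dux* KO (SE 0.30, adjusted p = 0.0153) and −0.06 in double KO (adjusted p = 0.887). The *Obox4* KO call was lost when any library other than *Obox4* KO replicate 3 was left out (1.06 to 1.67) and with a replicate block (adjusted p = 0.0127). Double KO cells had less than *Dux* KO cells (−1.25, SE 0.30, adjusted p = 0.0105).

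The difference of the *Obox4* KO effect between *Dux* KO and WT cells, tested by an interaction term, called *Hist1h1t* alone (1 of 62, 1.25% of all genes). *Dux* KO cells, in which *Obox4* was not targeted, had only 0.116 to 0.130 CPM of uniquely mapped *Obox4* reads, against 15.6 to 17.0 CPM in WT cells. Double KO cells, made from *Obox4* KO and not from *Dux* KO cells, had 0 to 0.192 CPM. *Obox4* RNA thus hardly differed between *Dux* KO and double KO cells, and the term cannot measure an effect of *Obox4* loss. The term for *Hist1h1t* was −2.59 (SE 0.42, adjusted p = 0.00532). At the adjusted p of 0.05, 3 members passed (7.53% of all genes), with *Hist1h2bh* (−1.38) and *Hist1h3b* (−0.87). The call held without double KO replicate 3 or *Obox4* KO replicate 3 and was lost without any one of the other 10 libraries, with values of −2.93 to −2.30 throughout. Without *Obox4* KO replicate 3 the term called 4 members (9.51% of all genes), *Hist1h1t* (−2.93), *Hist1h4h* (1.10), *Hist1h4i* (1.10) and *Hist1h2ai* (1.49).

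The other germ line genes, *Hist1h2aa* and *Hist1h2ba*, lie head to head. *Hist1h2aa*, the H2A gene of the germ line pair, had 10.1, 8.99 and 10.5 CPM in WT and 13.7, 13.7 and 23.4 CPM in *Obox4* KO mESCs in PlaB (log2 fold change 0.78, adjusted p = 0.0263). In the induction series it was lower, with 11.2, 9.28 and 8.38 CPM at 0 h, 4.46, 5.45 and 6.62 CPM at 12 h (−0.80, SE 0.19, adjusted p = 0.05) and 7.00, 4.96 and 5.20 CPM at 48 h (−0.74, adjusted p = 0.0273). At 12 h it was the 1 member with an adjusted p of at most 0.05 (3.28% of all genes). In 2C-embryos it had 40.7 and 38.0 CPM under scramble, 31.2 and 33.1 in the libraries labelled *Obox4* KD, 30.5 and 27.3 in *Dux* KD, 22.2 and 22.2 in the double KD and 20.2 and 17.4 in the rescue. The scramble libraries were thus the highest, and the log2 fold change of the double KD was −0.83 (SE 0.11, adjusted p = 1.37e-05).

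*Hist1h2ba*, its H2B partner, had 38.9 and 40.5 CPM under scramble, 42.1 and 45.8 in the rescue and 34.3 and 33.5 in the double KD (rescue against double KD 0.38, adjusted p = 0.00593). In double KO mESCs in PlaB it had 12.4, 20.7 and 5.96 CPM against 28.3, 26.9 and 27.5 in *Dux* KO (−1.05, adjusted p = 0.032). In morulae *Hist1h2aa* and *Hist1h2ba* were at 29.8 and 37.5 CPM in the library labelled double KD replicate 1 and 5.82 and 7.21 CPM in replicate 2, against 23.5 to 31.3 CPM under scramble. *Hist1h1t* had 1.41 and 1.36 CPM in scramble 2C-embryos and 0.66 and 0.944 CPM in the rescue (against the double KD −0.78, adjusted p = 0.0791), and was at 0 in 4 of 6 blastomeres, both KO cells included, so it was not detected there at this depth.

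Genes that make and process histone mRNA were examined in the same fits. *Slbp*, the stem-loop binding protein, had 318 and 378 CPM under scramble, 199.6 and 224 in the double KD and 381 and 319 in the rescue. The double KD was below both (−0.72 against scramble, adjusted p = 1.41e-05; rescue against double KD 0.73, adjusted p = 2.68e-05), and the rescue, where H2A was lowest, overlapped scramble. In PlaB mESCs *Slbp* had 51.2, 54.2 and 51.7 CPM in WT and 86.9, 86.8 and 70.0 CPM in *Obox4* KO cells (0.63, adjusted p = 0.00495). *Npat*, the histone locus co-activator, was lower in *Dux* KD embryos (−0.39, adjusted p = 0.00411), and *Casp8ap2*, another histone locus body protein, in the double KD (−0.24, adjusted p = 0.0082). Over the 20 genes of histone mRNA transcription and processing, 5 were lower and 5 higher at 0.05 in the double KD (37% of all genes passed), 5 lower and 4 higher in the rescue against the double KD (28.2%), and 2 lower and 0 higher at 48 h of induction (12.2%).

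Most replication-independent variants are made throughout the cell cycle from polyadenylated mRNA. *H2afz*, which encodes H2A.Z, had 95.5 and 97.9 CPM in the double KD and 46.9 and 67.7 CPM in the rescue, without overlap (−0.76, adjusted p = 0.000249). *H3f3a* and *H3f3b*, both H3.3 genes, were lower in the double KD than under scramble (−0.48, adjusted p = 0.000236, and −0.52, adjusted p = 1.77e-06) and higher in the rescue than in the double KD (0.24, adjusted p = 0.0421, and 0.41, adjusted p = 4.4e-05). Among histone chaperones, *Ssrp1*, a FACT subunit, fell by 1.62 on the log2 scale and *Asf1a* by 1.01 in the double KD, and *Hira*, which deposits H3.3, rose by 1.77 there and fell by 1.17 in the rescue against the double KD. In PlaB mESCs *Atrx*, another H3.3 deposition factor, fell by 1.32 in *Obox4* KO and by 1.40 in double KO cells, and *Cdkn1c*, a cell cycle inhibitor, rose by 2.19 and 2.52. None of *Slbp*, *Npat*, *Casp8ap2*, *H3f3a*, *H3f3b* and *H2afz* passed the adjusted p of 0.05 at 12 or 48 h of induction. Other variants did pass at 48 h in edgeR's test, all lower. They were *H1f0* (−0.80, adjusted p = 0.00192), *H2afy* (−0.60, adjusted p = 0.0222) and *Cenpa* (−0.39, adjusted p = 0.0248). The fall at 48 h was thus not confined to the replication-dependent genes.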

How the data were processed

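RNA-seq was analysed in 41 libraries, and CUT&RUN in peak lists. Per the labels and the methods, the authors demultiplexed reads with bcl2fastq v2.20, trimmed with fastp v0.23.2 and aligned them to GRCm38.p6 with STAR v2.7.9a. The deposited gene counts were made by the authors with featureCounts v2.0.1 from unique reads, and a second deposited table per experiment, of estimated counts against genes and repeats with multi-mapping reads as fractions, was used as an alternative after rounding. Both blastomere tables hold estimated counts that include multi-mapping reads, which the authors counted without strand, and were rounded too. For CUT&RUN the authors used Bowtie2 v2.4.1 and MACS3 v3.0.0a6 and deposited fold enrichment and −log10 q per peak and replicate.

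The members, gene lists and tests were chosen with earlier results of these data known. Genes were filtered with filterByExpr and fitted within each experiment, all groups together, with edgeR 4.0.16 (R 4.3.3, TMM scaling, quasi-likelihood test), and p-values were adjusted over all genes by the Benjamini-Hochberg method. This gave 14 comparisons, 2 interaction terms (differences of the *Obox4* effect) and 1 comparison added later. CPM came from the same fit, and log2 CPM in plots used a pseudocount of 0.5. Calls required an adjusted p of at most 0.01 and a 2-fold change. A promoter held a peak where a peak lay within 500 bases of the start in at least 2 replicates. Python 3.11.15, pandas 2.3.3, numpy 2.4.6 and matplotlib 3.10.9 were used, and the fit was tested on simulated data.

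Gene reads per library were 22470332 to 31504967 (induction), 26148176 to 69461986 (2C-embryos), 53573946 to 104864947 (morulae), 26447955 to 40005047 (blastomeres) and 14283083 to 48837123 (PlaB). The genes named were the 2 highest members of each class per experiment, every called member, the germ line members, called genes of the lists and 6 partner genes (*Slbp*, *Npat*, *Casp8ap2*, *H3f3a*, *H3f3b*, *H2afz*). Members that passed only an adjusted p of 0.05 or changed on leaving out a library, the short coding genes and the overlap check were chosen after values were seen. Alternatives were DESeq2 1.42.0, relative log expression scaling, no filter, multi-mapping reads, a replicate block, a threshold of 0.05, each library left out, and other peak criteria. Of the per-sample columns 0 were left out for want of a label, and 3 samples had no group.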

Additional observations from a re-analysis of the deposited data

Results flagged for a closer look

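Among the members, the interaction term of the *Obox4* KO and *Dux* KO genotypes of mESCs in PlaB called *Hist1h1t*, the testis-specific H1 gene. The interaction term was −2.59 on the log2 scale (SE 0.42, adjusted p = 0.00532, edgeR's quasi-likelihood test). Uniquely mapped *Obox4* reads were at 0.116 to 0.130 CPM in *Dux* KO, 15.6 to 17.0 CPM in WT and 0 to 0.192 CPM in double KO cells. The library labelled *Obox4* KO replicate 3 had 11.9 CPM. With multi-mapping reads it had 16.5 CPM, against 124 to 129 CPM in WT. The parts of the term were a log2 fold change of 1.34 from WT to *Obox4* KO and of −1.25 from *Dux* KO to double KO. *Obox4* RNA hardly differed between *Dux* KO and double KO cells, so the term cannot measure an effect of *Obox4* loss. The term lay between −2.93 and −2.30 when each of the 12 libraries was left out in turn, and 10 of these choices lost the call, and with a replicate block it was −2.57 (adjusted p = 0.0115).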

How the results depend on the processing

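Of the summary values under the alternatives, 248 stayed within their limits and 102 moved. Some medians changed sign when a library was left out, as the ranges in the next paragraph show. Of the values of single members, 657 kept their side of the threshold, 37 passed it anew and 46 lost it. With an adjusted p of 0.05 and no minimum fold, members passing numbered 1 and 11 at 12 and 48 h, 13, 11 and 13 in 2C-embryos labelled *Obox4* KD, *Dux* KD and double KD, 9 in double against *Dux* KD, 21 and 13 in the rescue against double KD and scramble, 14 and 3 for the interaction terms of embryos and PlaB mESCs, and 2, 3, 6 and 16 in *Obox4* KO, *Dux* KO, double KO, and double against *Dux* KO. DESeq2 called 1, 1 and 11 in the last 3 (it was not run for the interaction terms), relative log expression scaling 1 in double KO, and no filter 1, 4 and 12, with 16 in morulae and 1 and 3 for the interaction terms. Multi-mapping reads gave 2 calls in *Dux* KD, 0 in double against *Dux* KD and 1 for the embryo interaction, and medians of 0.080, −0.074 and −0.089 in *Dux* KD, double KD and double against *Dux* KD, 0.20 in *Dux* KO and −0.13 in double against *Dux* KO. The labels give samples with the same replicate number nothing else in common, and whether they share a day or batch is not known (correlations of −0.61 to 0.38). With a replicate block the calls at 48 h, in *Obox4* KO and for the PlaB interaction were 0. H3K27me3 peaks at a −log10 q of at least 10 numbered 0 at members in all 4 lists, a window of 3000 bases gave 4 and 5 in WT cells without and with PlaB, and all 3 replicates 0 with PlaB. The cause of these changes was not tested.

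With each library left out, calls ranged from 0 to 0 at 12 h, 0 to 1 at 48 h, 0 to 0, 0 to 2 and 0 to 1 in embryos labelled *Obox4* KD, *Dux* KD and double KD, 0 to 0 in double against *Dux* KD, 6 to 10 and 7 to 9 in the rescue against double KD and scramble, 0 to 51 in morulae, 0 to 0 and 0 to 3 in Het and KO blastomeres, 0 to 4, 0 to 0, 0 to 8 and 1 to 12 in the 4 PlaB comparisons, and 0 to 1 and 0 to 4 for the interaction terms. Medians ranged in the same order from −0.16 to 0.11, −0.43 to −0.23, 0.19 to 0.32, −0.058 to 0.036, −0.14 to −0.0023, −0.092 to 0.035, −0.33 to 0.024, −0.28 to −0.0099, −1.93 to −0.33, 0.47 to 1.04, −0.19 to 0.35, −0.64 to 0.012, 0.22 to 0.28, −0.32 to 0.039 and −0.62 to −0.16. With 2 libraries a group, small differences of low members were not detectable at this depth. Counts of calls given without a share of all genes describe how the fits vary and not the members.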
